A study of Mus musculus with 18 samples.

Results

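The genes described here are the collagens, laminins and matrix remodeling genes of mouse liver, chosen by name: every gene of the deposited RNA-seq count table whose symbol is that of a collagen chain (Col), a laminin chain (Lama, Lamb, Lamc), an Adamts or Mmp protease, a Timp inhibitor or an enzyme of the Lox family. They number 85 of the 15572 genes in the table, of which 9 are fibrillar collagen genes, 19 are basement membrane genes and 57 are other matrix genes. Of the 85 genes, 74 passed the filter on low counts and were tested, and the 11 that did not pass were Col4a6, Col8a2, Col22a1, Col25a1, Col28a1, Adamts17, Mmp3, Mmp7, Mmp12, Mmp13 and Mmp24. Genes of these families outside the table, such as Col2a1, Col11a1 and Timp1, were not analysed here.

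The study asked what the histone demethylase JMJD1C does in liver across fasting and feeding. RNA-seq compared WT refed with JMJD1C-LKO refed mice, ATAC-seq, which finds open chromatin, covered fasted and refed WT mice together with refed JMJD1C-LKO mice, and ChIP-seq of H3K9me2, a histone mark known from silenced chromatin, covered WT fasted and WT refed mice, with 2 samples in each group. All mice were C57BL/6J, and in JMJD1C-LKO the floxed Jmjd1c gene was deleted by Cre driven by the albumin promoter, that is, in hepatocytes. Mice of all groups were kept on chow for 6 to 8 weeks and fasted overnight, and the labels state 6 h of refeeding on a high-carbohydrate diet where the general methods give 8 to 16 h. The methods state an age of 12 weeks unless otherwise specified. Each RNA-seq library was made from pooled RNA, so that p-values measure the spread between 2 pools, whereas each ATAC-seq and ChIP-seq sample was 1 liver.

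Collagens are trimeric proteins. The fibrillar ones (types I, III and V among others) build the tensile fibers that accumulate in scarred liver, and their main source there is the stellate cell, whereas type IV collagen, laminins and the endostatin-bearing collagen XVIII lie in basement membranes, of which the liver sinusoid holds only a thin form. Mmp and Adamts proteases cut matrix proteins, Timp proteins inhibit them, and Lox enzymes cross-link collagen and elastin. In whole liver RNA, fewer cells of a type and less RNA per cell cannot be told apart.

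Total counts ran from 51265128 to 54400509 per library. The deleted gene itself, Jmjd1c, was at 21.99 and 22.78 CPM (counts scaled to the library total) in the WT libraries and at 20.04 and 20.48 CPM in the libraries labelled JMJD1C-LKO, a log2 fold change of -0.14 (SE 0.08) with an edgeR quasi-likelihood adjusted p of 0.23. A count over the whole gene includes the exons that were left in place, and the exon that was removed is not named in the sources used here, so the RNA neither bears out nor contradicts the label. The groups are therefore called the libraries labelled JMJD1C-LKO. Markers of macrophages moved with the label: 8 of 8 listed Kupffer cell and macrophage genes were higher, with a summed level of 244.7 and 250.8 CPM in WT and of 482.2 and 695.2 CPM in the libraries labelled JMJD1C-LKO. Endothelial markers were higher for 7 of 11 genes (summed level 216.0 and 213.2 CPM against 270.0 and 354.7 CPM), and of the 14 stellate cell markers none passed the test in either direction (372.0 and 384.4 CPM against 386.8 and 448.3 CPM). Among the other lists, Thy1 of 6 markers of activated stellate or smooth muscle cells, Tat and Cps1 of 8 hepatocyte markers, Alas2 of 5 red blood cell markers, Cd3e of 6 lymphocyte markers and none of 6 cholangiocyte markers were higher, and none in any of these lists was lower. Over all 14151 genes tested, 14.6% were higher and 13.4% lower at an adjusted p under 0.05. So few calls in such short lists are given as values only. Every listed marker was above 0 CPM in at least 1 library, and the only one listed at 0 in any library was Cftr of cholangiocytes.

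By level per length, given as RPKM (the same scaled also by transcript length), the matrix genes were a low group in liver with a single high member. Their median level was 0.336 RPKM, and 26 of the 85 genes (30.6%) reached 1 RPKM. Over all genes of the count table the median was 2.94 RPKM, and 65.9% reached 1 RPKM. Col18a1, the gene of collagen XVIII, stood at 136 and 138 RPKM in the WT libraries and at 178 and 175 RPKM in the libraries labelled JMJD1C-LKO, which was 50.3% to 56.9% of the summed level of all 85 genes in each library. The basement membrane genes together held 57.8% of that sum in both WT libraries, the Mmp proteases 21.1%, and the fibrillar collagens 8.28% and 8.04%. The next highest genes were Mmp19 at a mean of 23.7 RPKM and Mmp14 at 18.1 RPKM, so that no collagen or laminin other than Col18a1 came above 10 RPKM.

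**Figure D1:**
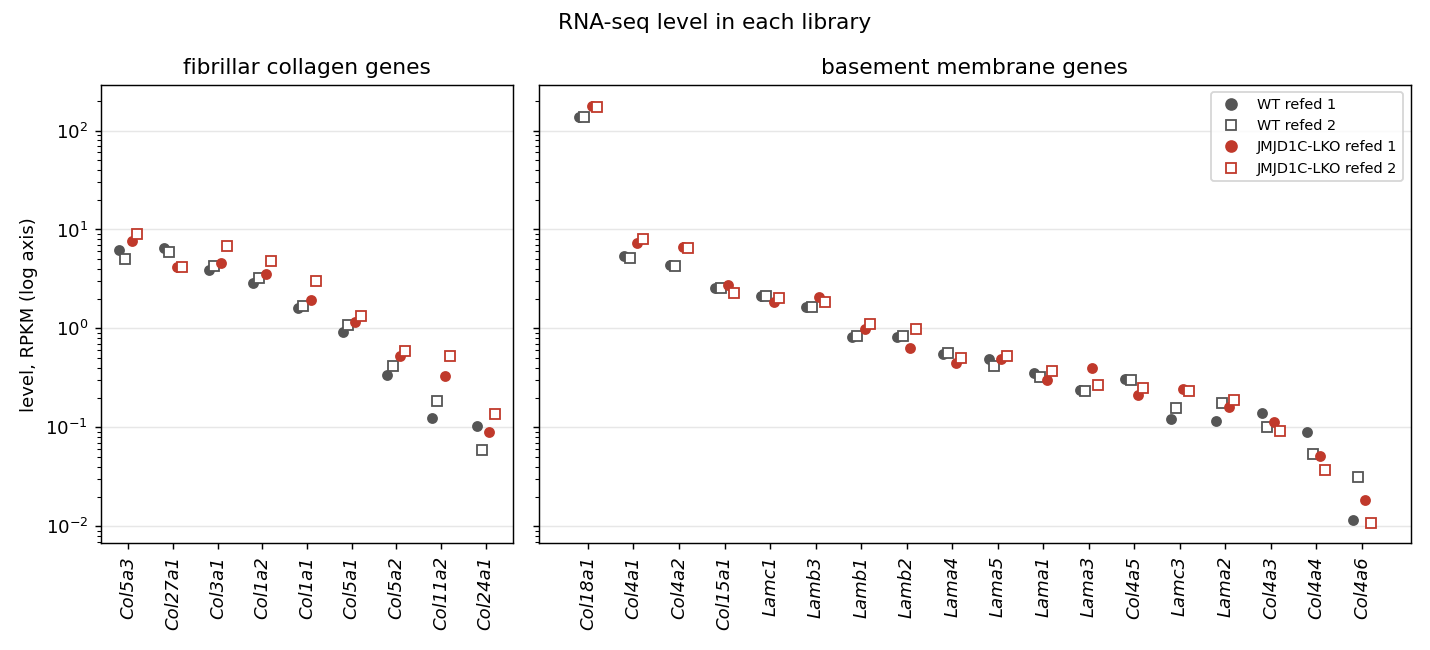
RNA-seq level (RPKM, log axis) of the fibrillar collagen genes (left) and all but 1 of the basement membrane genes (right), with 1 point for each of the 4 libraries, ordered by mean level. Col18a1 lies between 136 and 178 RPKM, and every other gene shown lies under 10 RPKM.

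The promoter sequences are shown for Col18a1, Mmp14 and Col27a1, which had an ATAC-seq or H3K9me2 summit at a start. For Col18a1 this was the downstream start only. Those of Col1a2 and Col3a1, 2 fibrillar collagens whose starts carried none, are shown as well. These few examples do not stand for the base composition of either kind. Each run is the 250 bases before a transcript start (RefSeq, build GRCm38.p6), written 5′ to 3′ along the gene, with capitals marking matches on either strand to the CCAAT box, to the GC box core GGGCGG or to the E-box CACGTG. The first pair are the separate starts of Col18a1, which lie 52825 bp apart on chromosome 10. Of the other members with a summit at a start, Lamc1, Adamts7, Mmp15, Mmp19, Loxl3 and Adamts17 are named only.
Downstream start of Col18a1 chr10:77113706-77113955 (minus strand): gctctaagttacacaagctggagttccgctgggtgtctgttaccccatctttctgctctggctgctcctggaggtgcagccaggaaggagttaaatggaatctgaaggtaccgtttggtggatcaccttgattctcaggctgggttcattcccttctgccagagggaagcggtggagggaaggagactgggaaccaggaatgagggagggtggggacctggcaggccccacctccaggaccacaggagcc
Upstream start of Col18a1 chr10:77166531-77166780 (minus strand): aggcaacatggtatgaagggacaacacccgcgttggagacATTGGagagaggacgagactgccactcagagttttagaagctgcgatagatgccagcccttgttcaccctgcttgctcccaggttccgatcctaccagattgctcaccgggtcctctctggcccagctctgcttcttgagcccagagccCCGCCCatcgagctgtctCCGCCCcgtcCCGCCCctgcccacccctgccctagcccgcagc
Mmp14 chr14:54431348-54431597 (plus strand): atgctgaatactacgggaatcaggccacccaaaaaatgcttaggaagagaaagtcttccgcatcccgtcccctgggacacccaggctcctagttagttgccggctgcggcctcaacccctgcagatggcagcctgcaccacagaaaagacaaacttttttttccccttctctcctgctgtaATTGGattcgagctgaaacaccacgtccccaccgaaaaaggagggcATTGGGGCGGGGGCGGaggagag
Col27a1 chr4:63215162-63215411 (plus strand): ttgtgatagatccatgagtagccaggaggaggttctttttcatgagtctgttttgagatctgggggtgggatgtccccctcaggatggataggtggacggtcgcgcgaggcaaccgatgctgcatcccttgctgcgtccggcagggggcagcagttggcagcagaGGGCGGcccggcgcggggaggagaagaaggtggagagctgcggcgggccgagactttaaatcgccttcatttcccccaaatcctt
Col1a2 chr6:4505368-4505617 (plus strand): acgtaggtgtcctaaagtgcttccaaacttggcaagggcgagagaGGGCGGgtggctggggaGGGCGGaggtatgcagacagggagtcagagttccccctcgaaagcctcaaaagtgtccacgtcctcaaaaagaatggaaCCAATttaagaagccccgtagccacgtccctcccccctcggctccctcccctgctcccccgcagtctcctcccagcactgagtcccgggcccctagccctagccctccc
Col3a1 chr1:45311288-45311537 (plus strand): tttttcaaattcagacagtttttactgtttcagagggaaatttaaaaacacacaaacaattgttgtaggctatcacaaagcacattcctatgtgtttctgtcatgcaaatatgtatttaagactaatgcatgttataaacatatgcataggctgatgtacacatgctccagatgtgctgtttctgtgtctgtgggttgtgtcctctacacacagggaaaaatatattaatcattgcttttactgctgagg
The 250 bases before the downstream Col18a1 start held 3 CG dinucleotides and no match, and those before the upstream start held 12 CG dinucleotides, 1 CCAAT match and 3 matches to GGGCGG. Col3a1, with 35.2% GC and no CG at all, was the poorest of the 6, against 62.0% GC and 11 CG before Col1a2. Promoters of 57 of the 85 genes were in the RefSeq table used, as 63 windows of 300 bases (250 before and 50 after the start). GGGCGG, the core of the GC box, was present on either strand in 38 of the 63 windows (60.3%), compared with 35.7% of all 32851 promoters. CCAAT was present in 16 (25.4%, against 37.4%), and CACGTG, to which USF-1 binds, in 2 (3.17%, against 7.15%), those of Adamts17 and Mmp7. A window could hold several of these motifs, and a GGGCGG match of Mmp14 overlaps a match to CCAAT. None of the 7 fibrillar and none of the 14 basement membrane windows held CACGTG. The 32851 promoters include those of genes outside the count table. Their median GC was 52.7%, against 59.7% for promoters of genes of the count table and 60.3% for the matrix genes. Motif shares were not computed over the count table alone, so the differences in share are not given as a trait of the matrix genes.

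Fibrillar collagen genes were mostly higher in the libraries labelled JMJD1C-LKO. All 9 were tested, 5 rose (Col1a1, Col1a2, Col3a1, Col5a3 and Col11a2), and Col27a1 fell. Over all 14151 genes tested, 14.6% were higher and 13.4% lower at an adjusted p under 0.05. The median log2 fold change of the 9 genes was 0.49, compared with 0.01 over all genes tested.

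Col1a1 and Col1a2 encode the chains of type I collagen, the main collagen of scar. Col1a1 was at 9.47 and 9.99 CPM in WT and at 11.5 and 17.8 CPM in the libraries labelled JMJD1C-LKO, a log2 fold change of 0.59 (SE 0.18, adjusted p = 0.0351). Col1a2 was at 14.9 and 16.8 CPM in WT and at 18.6 and 25.2 CPM, a log2 fold change of 0.47 (SE 0.14, adjusted p = 0.0315). For both genes the groups did not overlap, and library 2 of JMJD1C-LKO was far above library 1. The ratio of Col1a1 to Col1a2 per length was 0.559 and 0.523 in WT and 0.542 and 0.621 in the libraries labelled JMJD1C-LKO. Col3a1, which forms mixed fibers with type I collagen, showed the same order of libraries, with 21.5 and 23.7 CPM in WT and 25.2 and 38.0 CPM (log2 fold change 0.49, SE 0.16, adjusted p = 0.0485).

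These 3 calls depended on single libraries. Without library 2 of JMJD1C-LKO, the log2 fold changes of Col1a1, Col1a2 and Col3a1 were 0.24, 0.23 and 0.16, with adjusted p-values of 0.19, 0.16 and 0.29, and the median over the 9 fibrillar genes was 0.23. Without WT library 1 or WT library 2 their log2 fold changes ran from 0.38 to 0.63 with adjusted p-values of 0.11 to 0.25. Library 2 of JMJD1C-LKO was also the higher of the pair for all 9 fibrillar genes, for 13 of 14 stellate markers, for all 11 endothelial markers and, in sum, for the macrophage markers. Over all genes tested it was the higher for 50.6%. It was also the higher for all tested markers of cholangiocytes (5), lymphocytes (6) and activated stellate or smooth muscle cells (5). The order was less common for basement membrane genes (10 of 18), hepatocyte markers (2 of 8) and red blood cell markers (2 of 5). The part of these cell type markers in the collagen values was not tested.

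The type V and XI collagens, which start and thin the fibers of types I and II, included the gene with the largest change of the group. Col5a3 was the highest fibrillar gene per length, with a mean of 6.94 RPKM, and measured 37.5 and 30.8 CPM in WT and 46.9 and 54.5 CPM in the libraries labelled JMJD1C-LKO. It rose by 0.57 on the log2 scale (SE 0.11, adjusted p = 0.0057) and by 0.46 without library 2 of JMJD1C-LKO (adjusted p = 0.015), and it missed the threshold without WT library 2 (0.43, adjusted p = 0.092). Col11a2, better known from cartilage, was a low gene here, with 41 and 62 counts in WT and 105 and 188 counts in the libraries labelled JMJD1C-LKO. It rose 2.8-fold (log2 fold change 1.49, SE 0.31, adjusted p = 0.0078), missed the threshold without WT library 1 (1.22, adjusted p = 0.087), and had a log2 fold change of 0.69 (adjusted p = 0.44) when only its most abundant transcript was counted. Col5a1 (7.77 and 9.18 CPM against 9.80 and 11.2 CPM, adjusted p = 0.119) and Col5a2 (2.26 and 2.78 CPM against 3.46 and 3.92 CPM, adjusted p = 0.0672) had groups that did not overlap and did not pass the test. In random order, 2 libraries against 2 fail to overlap with a probability of 0.333. Lack of overlap alone therefore carries little, here and below. Col24a1, at 0.0968 RPKM, had overlapping groups.

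Col27a1, a fibrillar collagen with a short helix known from cartilage, was the exception in direction. It measured 49.1 and 45.3 CPM in WT and 31.9 and 32.0 CPM in the libraries labelled JMJD1C-LKO, so that the replicates of each group lay close together. The log2 fold change was -0.56 (SE 0.08, adjusted p = 0.00134), and it stayed between -0.51 and -0.62 with any single library left out, past the threshold each time. Its level per length, a mean of 5.18 RPKM, was second among fibrillar genes.

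**Figure D2:**
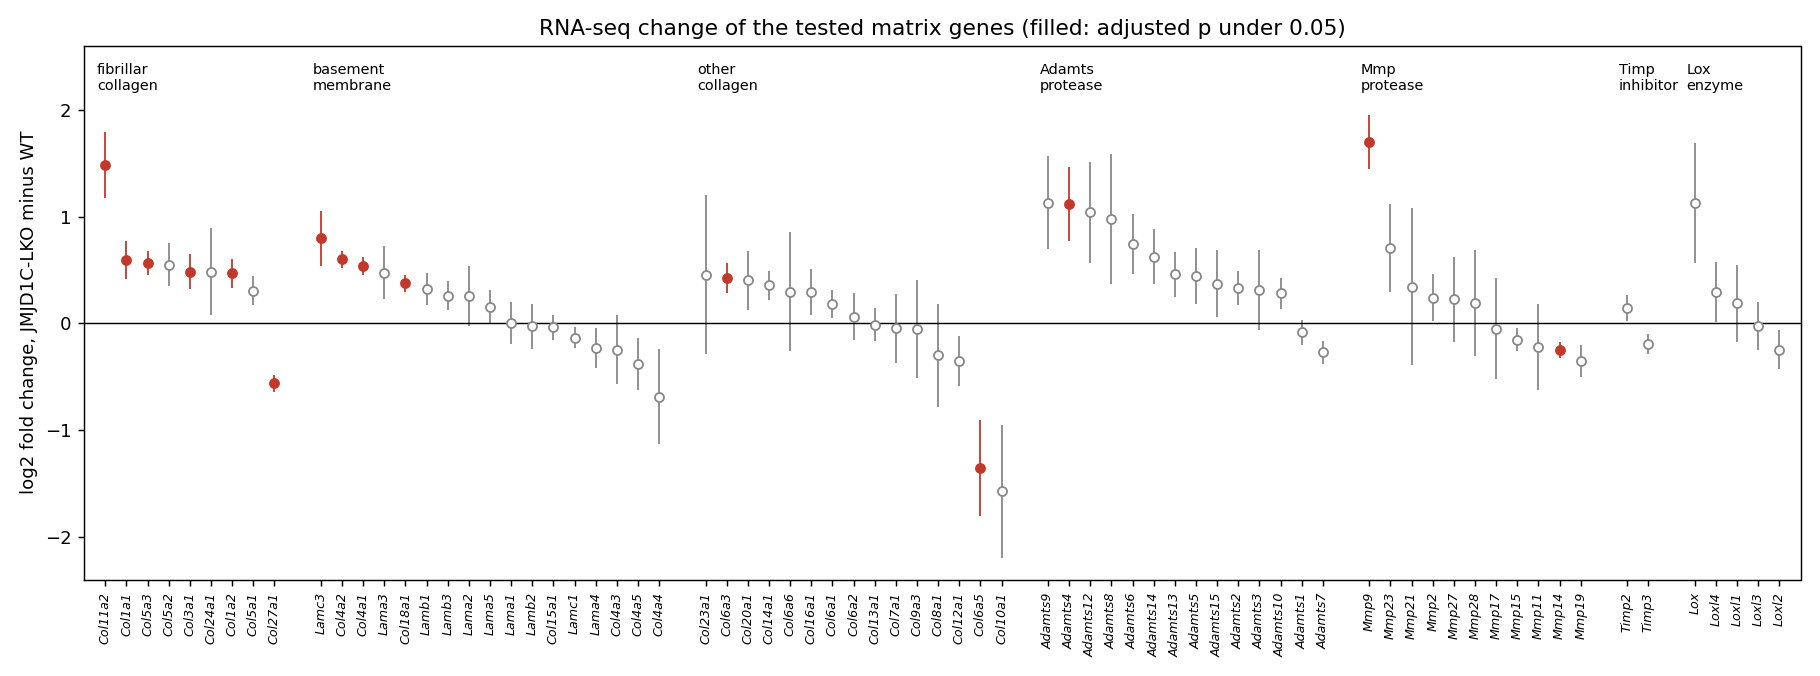
Log2 fold change (JMJD1C-LKO minus WT) of all but 1 of the 74 tested matrix genes with its standard error, grouped by family and ordered by size within each. Filled points are the 15 genes with an adjusted p under 0.05; in the fibrillar group 5 of them lie above 0 and Col27a1 lies below.

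Basement membrane genes rose at the type IV collagen pair and at Col18a1, and few others moved. Of 18 tested, 4 rose (Col4a1, Col4a2, Col18a1 and Lamc3) and none fell, against 14.6% and 13.4% of all genes. At an unadjusted p under 0.05 the same number, 4 of 18, was reached in either direction, against 5650 of all 14151 genes tested. On that measure the share was smaller than over all genes. No basement membrane gene was lower in the DESeq2 fit either. The median log2 fold change was 0.21.

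Col4a1 and Col4a2 encode the most widespread chains of type IV collagen, the network that carries basement membranes. Their starts lie 21 bp apart on chromosome 8, at position 11312826 for Col4a1 (minus strand) and 11312805 for Col4a2 (plus strand) in GRCm38, so that the genes are transcribed away from each other and 22 bases are shared between their first exons. Col4a2 was at 28.5 and 27.3 CPM in WT and at 42.5 and 41.9 CPM in the libraries labelled JMJD1C-LKO, 1.52-fold higher (log2 fold change 0.60, SE 0.08, adjusted p = 0.000861). Col4a1 was at 35.4 and 34.0 CPM in WT and at 47.9 and 52.7 CPM, 1.45-fold higher (log2 fold change 0.53, SE 0.08, adjusted p = 0.00194). In both genes the replicates lay close together and the groups were well apart. The ratio of Col4a1 to Col4a2 per length was 1.21 and 1.22 in WT and 1.1 and 1.23 in the libraries labelled JMJD1C-LKO. Col4a2 passed the threshold with any single library left out, and Col4a1 did so except without WT library 2 (0.50, adjusted p = 0.05).

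The other type IV chains, which replace the common pair in specialized basement membranes such as that of the kidney, stayed at 0.267 RPKM or under. Col4a5 (1.948 and 1.898 CPM against 1.36 and 1.60 CPM, adjusted p = 0.27), Col4a3 (adjusted p = 0.60) and Col4a4 (adjusted p = 0.28) had log2 fold changes of -0.38, -0.25 and -0.69 that did not pass the test, and Col4a6 had too few counts to be tested.

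Col18a1, from which the fragment endostatin is released, was at 706 and 718 CPM in WT and at 934 and 915 CPM in the libraries labelled JMJD1C-LKO. The groups were well apart, with a 1.298-fold rise (log2 fold change 0.38, SE 0.08, adjusted p = 0.00793). The log2 fold change ran from 0.35 to 0.39 with any single library left out, and it passed the threshold except without WT library 1 (adjusted p = 0.10) or WT library 2 (adjusted p = 0.095). The estimated counts divide the gene between 2 transcripts with separate starts. The transcript of the upstream start held 514 and 496 CPM in WT and 584 and 621 CPM in the libraries labelled JMJD1C-LKO. That of the downstream start held 193 and 222 CPM in WT and 351 and 294 CPM, and its share of the gene was 27.3% and 30.9% in WT and 37.5% and 32.1% in the libraries labelled JMJD1C-LKO. The ratio of group means was 1.55 for the downstream and 1.19 for the upstream transcript, and no test was run between them, since the transcripts share most of their exons and the division is an estimate. Col15a1, the other collagen of this kind, was at 13.7 and 13.6 CPM in WT and at 14.67 and 12.01 CPM, with overlapping groups (log2 fold change -0.03, adjusted p = 0.855).

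Laminins are trimers of an alpha, a beta and a gamma chain. Of the 11 laminin genes tested, Lamc3 alone passed the test. Lamc3, a gamma chain of few tissues, was at 1.02 and 1.32 CPM in WT and at 2.085 and 1.996 CPM in the libraries labelled JMJD1C-LKO (log2 fold change 0.80, SE 0.26, adjusted p = 0.0435), from 53 to 110 counts per library, and it missed the threshold without any 1 of the 4 libraries (adjusted p of 0.069 to 0.29). Lamc1, the common gamma chain, was the highest laminin per length at 2.03 RPKM, with 16.3 and 16.1 CPM in WT and 14.1 and 15.5 CPM (adjusted p = 0.342). Lamb3, a beta chain of epithelial basement membranes, was at 6.64 and 6.60 CPM in WT and at 8.30 and 7.55 CPM, with groups that did not overlap (log2 fold change 0.26, adjusted p = 0.177). The remaining laminins, Lama1 to Lama5, Lamb1 and Lamb2 among them, did not pass, and the log2 fold changes of these 7 lay between -0.23 (Lama4) and 0.48 (Lama3).

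Among the 57 other matrix genes 47 were tested, 3 rose (Col6a3, Adamts4 and Mmp9) and 2 fell (Col6a5 and Mmp14). Both shares lie under those of all genes tested, 14.6% higher and 13.4% lower. The one with the largest fold was Mmp9, a gelatinase that cuts type IV collagen and is made mostly by leukocytes. It was at 1.12 and 0.939 CPM in WT and at 2.85 and 3.85 CPM in the libraries labelled JMJD1C-LKO, 3.26-fold higher (log2 fold change 1.70, SE 0.25, adjusted p = 0.00148), and it passed the threshold with any single library left out. The macrophage markers given above rose in the same libraries and their part in the Mmp9 value was not tested. Mmp14, the membrane protease that activates Mmp2, fell from 75.7 and 74.2 CPM to 61.1 and 64.8 CPM (log2 fold change -0.25, SE 0.08, adjusted p = 0.0366), whereas Mmp2, the gelatinase it activates, had overlapping groups (2.64 and 3.80 CPM against 4.15 and 3.47 CPM). Mmp14 kept its direction and missed the threshold without WT library 1, WT library 2 or library 1 of JMJD1C-LKO (adjusted p of 0.24, 0.19 and 0.051).

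Mmp19, the highest Mmp gene, was at 86.8 and 88.8 CPM in WT and at 82.5 and 55.2 CPM in the libraries labelled JMJD1C-LKO (log2 fold change -0.35, adjusted p = 0.11), and 22.9% of its exon bases are shared with Tmem198b on the opposite strand. Whether the counting used strand is not given in the sources used here, so reads of the pair cannot be told apart. Mmp15 had overlapping groups (34.4 and 35.8 CPM against 35.3 and 27.9 CPM).

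Of the Adamts proteases 14 were tested and Adamts4, an aggrecanase, rose from 25 and 31 counts to 48 and 75 counts (log2 fold change 1.12, SE 0.35, adjusted p = 0.0391). It missed the threshold without WT library 1, WT library 2 or library 2 of JMJD1C-LKO (adjusted p of 0.23, 0.14 and 0.18). The 3 highest of the family, Adamts7 (22.1 and 21.6 CPM against 19.8 and 16.5 CPM), Adamts10 (8.14 and 7.80 CPM against 8.46 and 10.9 CPM) and Adamts1 (11.03 and 10.14 CPM against 9.49 and 10.5 CPM), did not pass. The fitted direction was positive for 12 of the 14, against 7154 of all 14151 genes tested. Library 2 of JMJD1C-LKO was above library 1 for 13, against 50.6% of all genes tested.

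The remaining collagens include those of type VI, which form beaded filaments. Col6a3 was at 6.31 and 5.43 CPM in WT and at 7.83 and 7.93 CPM in the libraries labelled JMJD1C-LKO (log2 fold change 0.43, SE 0.14, adjusted p = 0.0499, at the edge of the threshold). Its partners Col6a1 (11.8 and 13.5 CPM against 12.6 and 16.1 CPM) and Col6a2 (5.02 and 5.23 CPM against 4.05 and 6.64 CPM) had overlapping groups. Col6a5 fell from 25 and 33.7 counts to 10 and 13 counts (log2 fold change -1.36, SE 0.45, adjusted p = 0.0483). Neither type VI call was kept under DESeq2 (adjusted p of 0.095 and 0.16), and Col6a5 missed the threshold without any 1 library, as did Col6a3 except without library 1 of JMJD1C-LKO. Col14a1, which binds to the surface of fibrils, was at 16.9 and 20.6 CPM against 21.0 and 27.1 CPM (adjusted p = 0.077), and Col13a1, a transmembrane collagen, had overlapping groups.

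The inhibitors and cross-linking enzymes showed no call. Timp3, which is held in the matrix, was at 30.9 and 26.8 CPM in WT and at 24.3 and 26.2 CPM in the libraries labelled JMJD1C-LKO (log2 fold change -0.19, adjusted p = 0.17), and Timp2 was at 9.32 and 10.5 CPM against 10.2 and 11.7 CPM (adjusted p = 0.43). In the Lox family none of 5 genes reached 1 RPKM or passed the test, among them Loxl2 (3.97 and 4.14 CPM against 3.08 and 3.76 CPM), Loxl3 (2.02 and 2.12 CPM against 1.85 and 2.19 CPM) and Loxl1 (1.14 and 1.27 CPM against 0.87 and 1.85 CPM).

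The matrix partner genes, which are glycoproteins, collagen-processing enzymes, integrins and the Tgfb pathway, were 62 of a list of 64 names (Dcn and Ecm1 are also among the stellate markers). Of 59 tested, 13 rose and 4 fell, compared with 14.6% and 13.4% of all genes, so that the share higher lies above and the share lower under that of all genes. The calls fell to 4 without WT library 1 and to 2 without WT library 2, when Ctgf and Tgfbr2 alone remained. Ctgf, a matricellular target of Tgfb and Yap signaling, rose from 5.90 and 6.27 CPM to 15.9 and 23.2 CPM (log2 fold change 1.68, SE 0.17, adjusted p = 0.00022). Tgfb1, the ligand that drives fibrillar collagen synthesis, rose from 8.68 and 8.65 CPM to 12.7 and 16.6 CPM (log2 fold change 0.76, SE 0.14, adjusted p = 0.004), and its receptor gene Tgfbr2 from 12.3 and 13.6 CPM to 20.2 and 19.3 CPM (log2 fold change 0.60, SE 0.10, adjusted p = 0.0022). P4ha1, a catalytic subunit of the prolyl hydroxylase that stabilizes the collagen helix, rose (log2 fold change 0.72, SE 0.14, adjusted p = 0.005), whereas P4ha2, another such subunit, fell from 5.88 and 5.64 CPM to 4.01 and 3.34 CPM (log2 fold change -0.65, SE 0.17, adjusted p = 0.018). Plod3, a lysyl hydroxylase, fell by 0.33 on the log2 scale (adjusted p = 0.016). Itga6, an integrin chain that binds laminin, fell by 0.83 on the log2 scale (adjusted p = 0.011) and Crtap, a helper of prolyl 3-hydroxylation, by 0.47 (adjusted p = 0.04). Without WT library 1 or WT library 2 the adjusted p was 0.054 and 0.058 for P4ha1, 0.15 and 0.12 for P4ha2, 0.18 and 0.09 for Plod3 and 0.26 and 0.17 for Crtap. Without WT library 2 it was 0.056 for Tgfb1 and 0.15 for Itga6. With 1 transcript per gene P4ha1 (adjusted p = 0.28), P4ha2 (0.21), Itga6 (0.085) and Crtap (0.093) missed the threshold, as did Crtap under DESeq2 (0.075), while all kept their direction.

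**Figure D3:**
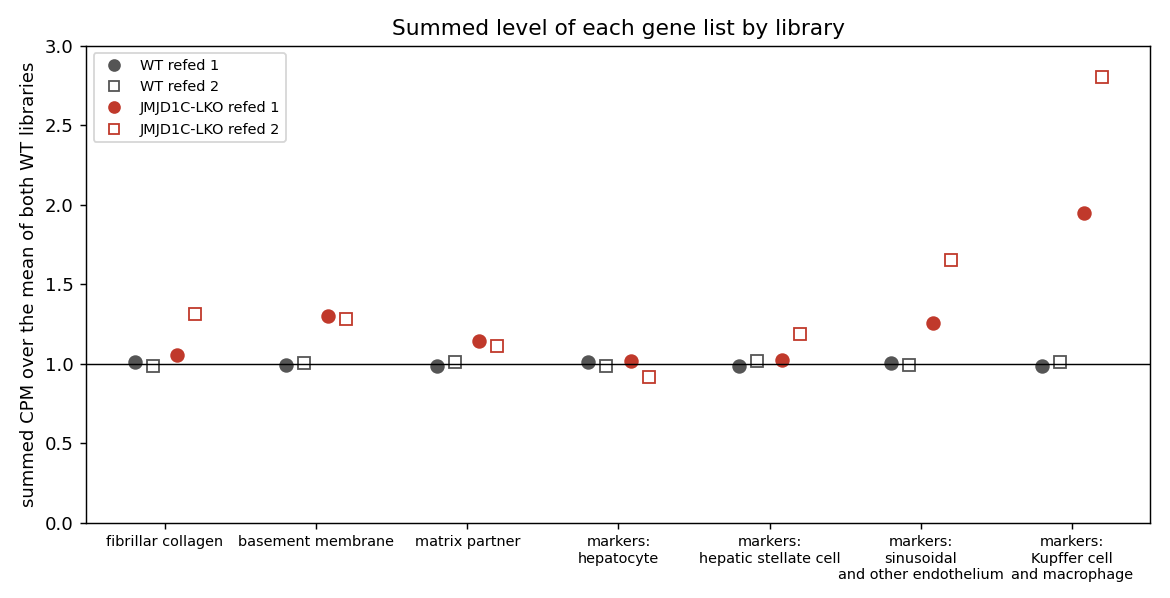
Summed level (CPM) of each gene list in the 4 libraries, divided by the mean of both WT libraries, with 1 point for each library. For fibrillar collagens (150.1 and 187.0 CPM) and for endothelial and macrophage markers, library 2 of JMJD1C-LKO lies above library 1, whereas the basement membrane sums (1091 and 1078 CPM) lie close together.

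In the chromatin data, peak summits were counted within 1000 bp of a transcript start (TSS) of the 15536 genes of the count table with RefSeq starts, all 85 matrix genes among them. The deposited summits are single positions without peak widths or read counts, so the depth of each liver is unknown. The lists differ in length, from 825 to 7632 summits for ATAC-seq and from 1297 to 13456 for H3K9me2, and the first H3K9me2 WT refed liver, with summits at only 24 genes, stands apart. With 2 livers in a group the smallest two-sided p of an exact permutation test is 0.333, so no test was made.

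ATAC-seq summits at the starts of matrix genes were nearly absent. In the first WT fasted liver 3 of 85 genes had one, compared with 18.9% of all genes, and in the second none had, compared with 8.62%. None had one in the WT refed livers (15.6% and 9.77% of all genes) or in the JMJD1C-LKO refed livers (6.28% and 1.3%). No matrix gene thus had a summit in both livers of any group. The 3 genes were Col18a1, with the summit at -247 bp from its downstream start, Adamts17 (-229 bp) and Mmp14 (-944 bp). For matrix partner genes the counts in the WT livers were 6, 3, 6 and 4 of 62. The fibrillar collagens, Col4a1 and Col4a2 had no summit at a start in any of the 6 livers, those labelled JMJD1C-LKO included.

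H3K9me2 summits at starts were also fewer than over all genes. In the WT fasted livers 3 and 8 of 85 matrix genes had one, compared with 47.2% and 68.4% of all genes. In the WT refed livers 0 and 7 had one, compared with 0.154% and 56.6%. Col18a1, Lamc1 and Mmp14 had one in both WT fasted livers and in the second WT refed liver. Of all 15536 genes, 7302 had one in both WT fasted livers and 11 in both WT refed livers. Col27a1, Adamts7, Mmp15 and Mmp19 had one in the second WT fasted and the second WT refed liver, and Loxl3 in the second WT fasted liver only. Col27a1 was thus the single fibrillar gene of 9 with an H3K9me2 summit at its start, and Col18a1 and Lamc1 the only basement membrane genes of 19. No ChIP-seq of JMJD1C-LKO liver was analysed here.

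**Figure D4:**
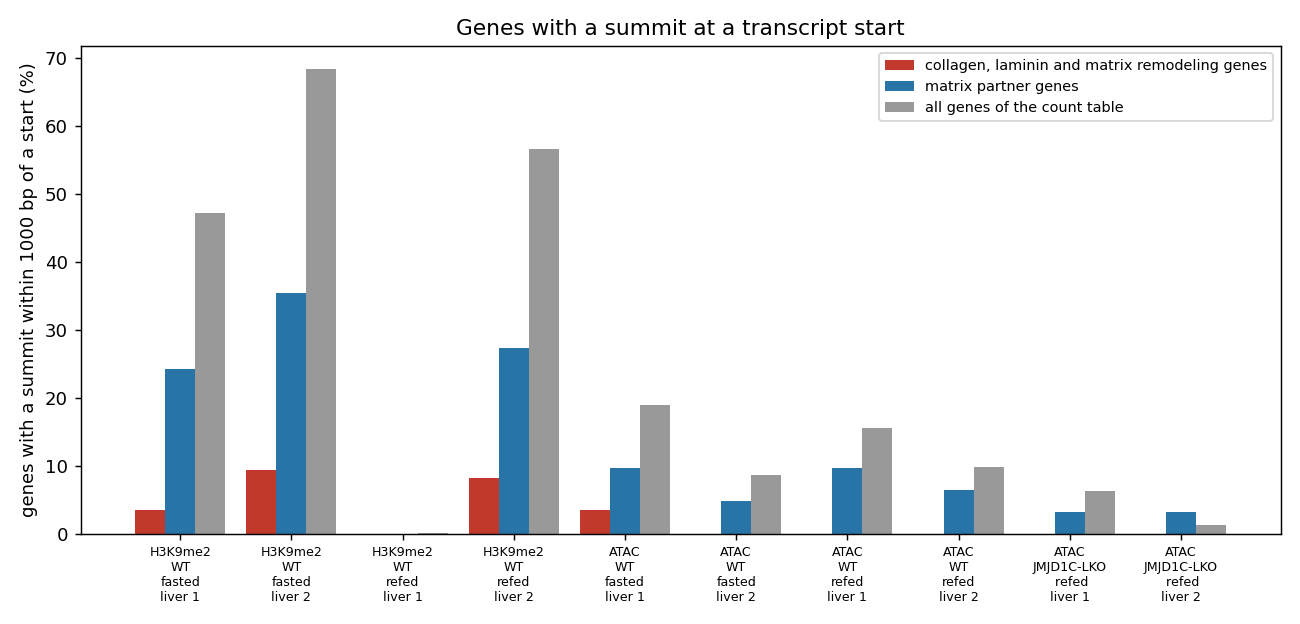
Share of genes (%) with a summit within 1000 bp of a start in each of the 10 livers, for the 85 matrix genes, 62 matrix partner genes and all 15536 genes with starts. The bars of matrix genes are at 0 in 6 of the 10 livers and reach 9.41% at most, where all genes reach 68.4%.

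The matrix genes with H3K9me2 summits were those of higher level. The 8 with a summit in either WT fasted liver had a median of 6.45 RPKM, and the 77 without had a median of 0.277 RPKM. Over all genes the same order was seen, with 6.15 RPKM for genes with and 0.246 RPKM for genes without a summit. Among genes at 1 to 10 RPKM, the share with a summit in the second WT fasted liver was 17.4% for matrix genes (4 of 23) and 84% for all genes, and under 1 RPKM it was 1.69% and 29.2%. The 3 matrix genes at 10 RPKM or more, Col18a1, Mmp14 and Mmp19, all had one. In sequence, the promoter windows of genes with an H3K9me2 summit in any liver had a median of 21 CG dinucleotides per 300 bases over the count table and those without had 8. The matrix genes had a median of 14, and the 4 with both a promoter entry and a summit had windows of 6 to 22. The median of those windows was 16, against 13.5 for the matrix genes with no H3K9me2 summit.

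Most summits lay just inside the gene. In Lamc1 the summits lay 96 and 105 bp after the start in the second WT fasted and the second WT refed liver and close beside them in the first WT fasted liver, and in Mmp14 they lay 315 to 363 bp after it, so that the livers gave nearly the same place. In Col27a1 they lay 349 and 283 bp after the start, in Mmp15 239 and 234 bp, in Mmp19 145 and 181 bp and in Adamts7 292 and 340 bp. In Col18a1 they lay 819 and 755 bp after the downstream start in the first WT fasted and the second WT refed liver and 275 bp after it in the second WT fasted liver. The upstream start of Col18a1, to which the larger part of its counts was assigned, had no summit of either assay within 1000 bp. Loxl3 was the single gene with the H3K9me2 summit before the start, at -984 bp. By score, the −log10 of the q-value, Col18a1 ranked 231 of 9929 summits in the second WT refed liver and 813 of 7690 in the first WT fasted liver. The other genes ranked lower in those livers. In the second WT fasted liver Col18a1 ranked 2772 of 13456.

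**Figure D5:**
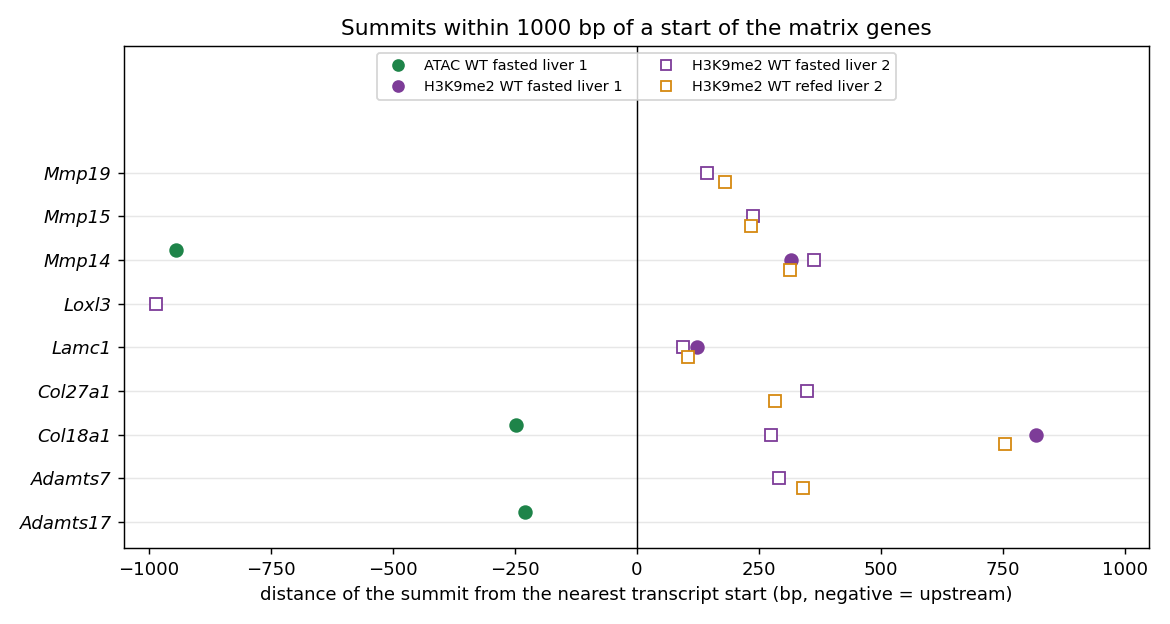
Distance (bp) of each ATAC-seq and H3K9me2 summit from the nearest start of the 9 matrix genes that had one within 1000 bp, with negative values upstream. All 3 ATAC-seq points lie upstream of the start, and every H3K9me2 point except that of Loxl3 lies downstream, at 96 to 819 bp.

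Inside the genes, from 1000 bp before the start to the transcript end, recurring ATAC-seq summits were found in a few large genes. A longer gene has more room for a summit, and no share over all genes was computed for this span. The sites are therefore given as places only, not as a trait of the matrix genes. In Adamts6 a summit lay in an intron in 5 of the 6 livers within 160 bp of each other, and in Col4a4 one lay in an intron in the 4 WT livers within 197 bp of each other. In Col6a6 the 2 livers labelled JMJD1C-LKO each had a summit 8583 or 8585 bp after the start, in intron 1, a place where the 4 WT lists held none. In RNA, Adamts6 did not pass the test (1.18 and 0.882 CPM in WT against 1.54 and 1.91 CPM in the libraries labelled JMJD1C-LKO, adjusted p = 0.077), and Col6a6 was near the lower limit of detection in all libraries (0.0332 RPKM).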

How the data were processed

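RNA-seq, ATAC-seq and H3K9me2 ChIP-seq of mouse liver were analysed from the deposited files. The RNA-seq table deposited by the authors holds estimated counts for each RefSeq transcript without scaling, 65.6% of them not whole. How they were counted and whether strand was used are not given in the sources used here. A table of the authors' own comparison (p-value, FDR and signed fold change per transcript) was not used. Peaks had been called by the authors liver by liver with MACS2 (version 2.1.1 in the submitters' processing notes) on mm10, and the deposited score of each summit is the −log10 of the q-value. Fold enrichment of at least 2.5 over input was asked of ChIP-seq peaks in the methods.

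Transcript counts were added up for each gene and rounded. Low genes were removed with filterByExpr of edgeR. WT refed and JMJD1C-LKO refed libraries (2 each) were compared with edgeR 4.0.16 (quasi-likelihood F test, TMM normalization, Benjamini-Hochberg adjustment over 14151 genes), with calls at an adjusted p under 0.05, and log2 fold changes are JMJD1C-LKO minus WT. The common dispersion was 0.0083. CPM and RPKM use TMM library sizes, and RPKM uses RefSeq transcript lengths, summed over the transcripts of a gene. The fit was tested on simulated data with 200 changed genes among 14151, and recovered 87.9% of those changed by 1 and 98% of those changed by 2 on the log2 scale, with 2.12% false calls. Every simulated gene had the common dispersion, the same in both groups. In the data the JMJD1C-LKO pair of libraries differed more than the WT pair (chi-square per degree of freedom of 32.6 and 12.7). The simulated rates are therefore not the error rates of the calls given here. Starts are those of RefSeq transcripts of GRCm38.p6, of which 24682 of the 24994 in the table were found by identifier.

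Fibrillar and basement membrane genes are described (1 tested laminin gene and 1 summit site inside a gene are not reported here), with values for those past the threshold and the 6 highest by RPKM in each list. Of the other members, those past the threshold and the 3 highest of each family are given, and of the partner genes up to 4 by p in each direction. The members, lists and markers were chosen with earlier results of these data known. Promoters shown were chosen after the summits were seen. Alternatives were RLE normalization, DESeq2 1.42.0, no filter on low counts, a replicate block, leaving out each library, 1 transcript per gene, and for summits a window of 2500 bp, a score of at least 5, equal numbers of summits and the whole gene.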

Additional observations from a re-analysis of the deposited data

How the results depend on the processing

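Directions held for all 15 called genes under every alternative, and Col27a1, Col4a2 and Mmp9 kept their call under each. The groups of these 15 genes did not overlap, so leaving out a library could hardly reverse a direction. The other alternatives refit the same 4 libraries, so the kept directions are no separate support. Leaving out a library leaves 1 sample in its group, which is then assumed to vary like the other group. By library left out, the genes higher ranged from 3 (without WT library 2) to 22 (without library 1 of JMJD1C-LKO) of 12 in the full fit, and those lower from 1 to 4. The ranges were 1 to 7 for fibrillar genes higher, 1 to 3 for basement membrane genes higher, 1 to 12 and 0 to 3 for other matrix genes higher and lower, and 2 to 21 and 0 to 7 for partner genes higher and lower. With 1 transcript per gene, Adamts4, Col11a2, Col18a1, Col1a1, Col1a2, Col3a1, Col6a3, Col6a5, Lamc3 and Mmp14 lost their call. All of these but Col11a2, Col18a1 and Col6a3 have only 1 transcript in the count table. For such genes the counts were unchanged, and the adjusted p moved with the rest of the fit. In this setting 4 genes were higher and 1 lower, with 1 fibrillar gene, 2 basement membrane genes and 1 other gene higher, 0 other genes lower, and 6 partner genes higher and 1 lower. Under DESeq2 1 gene was lower, and 1 other gene was higher and 0 lower; with no count filter 1 other gene was lower. With a replicate block 17 genes were called, 14 of them shared with the 15, and 5 other genes were higher. Samples sharing a number did not deviate together (correlation -0.005 over genes). This cannot tell whether they were paired by design. With the whole gene in place of the start, 4, 3 and 2 members had an ATAC-seq summit in both livers (fasted WT, refed WT and refed JMJD1C-LKO, in this order), against 0. The whole-gene count was not made over all genes, so it has no share to stand beside. By liver left out, the WT fasted ATAC-seq count was 0 to 3, and the H3K9me2 counts were 3 to 8 (WT fasted) and 0 to 7 (WT refed). At equal numbers of summits, 0 members had an H3K9me2 summit in both WT fasted livers, a count not made over all genes. The causes were not tested. No group had the 4 samples needed to look for a sample far from the rest.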
